A study of Homo sapiens with 11 samples.

Results

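The neurogenic transcription factors described here are INSM1, SOX4, SOX11, HES1, HES6, NHLH1, NHLH2, NEUROD1 and TCF4, a set of 9 genes measured in the neuroblastoma line IMR32. Every probe set annotated with 1 of these symbols was taken, which gave 26 probe sets for 8 genes, out of 19775 genes named on the array. NEUROD1 was not analysed here, since the annotation used pairs no probe set with it. A further 9 probe sets matched only through an old alias that now belongs to TCF7L2 or GATD3, and they were left out. IMR32 is an established human line derived from a childhood tumour of the sympathetic nervous system and carries an amplified MYCN gene. Total RNA was hybridised to 11 arrays, 1 sample an array. Of these, 2 arrays hold cells that received no virus (0 h). A further 3 arrays hold cells given lentivirus with the control hairpin SHC002, with 1 array each at 24, 48 and 72 h. The other 6 arrays hold cells given lentivirus with a hairpin against MYCN (shMYCN), with an array A and an array B at each of the same hours. All groups share the parental line and medium, and no selection step or clone is named in the labels. Each time point of the control virus therefore has no replicate, and the labels do not say whether arrays A and B came from separate cultures. What the p-values capture is therefore array-to-array spread, part or all of which may be technical.

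Proteins with a basic helix-loop-helix (bHLH) domain drive neuronal differentiation by pairing with an E protein such as TCF4 and binding the short DNA sequence called an E box. NHLH1, NHLH2 and NEUROD1 are such neuronal factors. ID proteins lack the DNA-binding basic region and take E proteins out of use. HES1 is a bHLH repressor that acts downstream of Notch and holds cells in a progenitor state, and HES6 is a relative that opposes HES1. SOX4 and SOX11 are closely related HMG-box factors that activate neuronal genes in postmitotic neurons and are needed for growth of the sympathetic ganglia. INSM1 is a zinc finger repressor of neuroendocrine and early neuronal cells, sympathetic precursors included.

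The arrays labelled shMYCN did not have less MYCN mRNA on the brightest MYCN probe set. Its signal was 4507 to 5624 over the 11 arrays and its log2 difference from control virus was -0.02 ± 0.08 (standard error; limma adjusted p = 0.866; 0.11 with quantile normalization, adjusted p = 0.0125). Over 23 alternatives the difference ran from -0.06 to 0.11 and changed sign in 4. Other MYCN probe sets were not described one by one, and MYCN protein was not measured on these arrays. The labelled cell type was checked on its markers: 10 of 12 sympathetic markers were above the dim filter described below, with summed signals of 11748 to 13351, although TH (tyrosine hydroxylase, 0.6 to 25.4) was not. MYCN itself (4507 to 5624) and GATA3 (2873 to 3499) are in that sum. Of the 10, DDC (log2 0.70), CHGB (0.47) and CHGA (0.32) were higher in the shMYCN arrays, averaged over the hours, and DBH was lower (-0.47). Without the control array at 72 h CHGA was at 0.25 and DBH at -0.16. Of all genes tested 22.2% were higher and 15.8% lower. Of 7 Schwann and glial markers 4 were named on the array and 0 were above the filter (summed signals 7.9 to 41.4). Leukocyte markers summed to 49.8 to 78.8, and epithelial and endothelial markers to 53.8 to 96.9. Of 10 mesenchymal markers 5 were tested and all 5 changed: COL1A1 was higher in the shMYCN arrays, and SNAI2, YAP1, VIM and FN1 were lower (FN1 not on the mean of its probe sets, adjusted p = 0.326). Their summed signal was 3458 and 3528 on the shMYCN arrays at 72 h, against 4737 on the control array of that hour, and the part of this in the results below was not tested. In bulk RNA, fewer cells of a type and less RNA per cell cannot be told apart.

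Signals are Affymetrix MAS5 intensities scaled to the same trimmed mean on every array, so a signal is compared only with the same probe set on other arrays. Differences are log2(signal + 16), with the standard error of the fit. Each gene was tested on its brightest probe set by limma across 11865 genes, with Benjamini-Hochberg adjustment, and "passed" means an adjusted p under 0.05. The dim filter left out the lowest 40% of genes (signal under about 14.8), and with them HES1, so 7 of the 8 genes were tested. A second fit covered all 41091 probe sets with 1 gene symbol and no filter. It gives the values for single probe sets. Each array was also left out in turn. Leaving out a control array takes its hour out of the averages over the hours, which then cover the other hours only.

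Of the 7 genes, 3 were higher with the MYCN hairpin than with control virus when the 3 hours were averaged (NHLH2, SOX11 and SOX4) and 0 were lower, where 37.9% of all genes tested passed in either direction, 22.2% higher and 15.8% lower. At 24 h 0 of 7 passed (background 0.708%, or 0.118% higher), and 0 had an unadjusted p under 0.05, against 11.5% of all genes. NHLH2 was the 1 gene that passed at 48 h (background 17%, or 10.1% higher). NHLH2, SOX11 and NHLH1 passed at 72 h, 3 of 7, all higher (background 34%, with 18.3% higher and 15.7% lower). These shares stand beside a background in which a large part of the array passed, and no test sets the members apart from it. Whether the difference itself changed from 24 to 72 h was tested as an interaction: 0 of 7 passed (background 10.3%), and 1, INSM1, had an unadjusted p under 0.05, against 25.8% of all genes. Scaling each array to its median instead moved the share of higher genes among those that passed from 53.7% to 42.9% at 72 h, and members whose call it changed are named below.

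**Figure D1:**
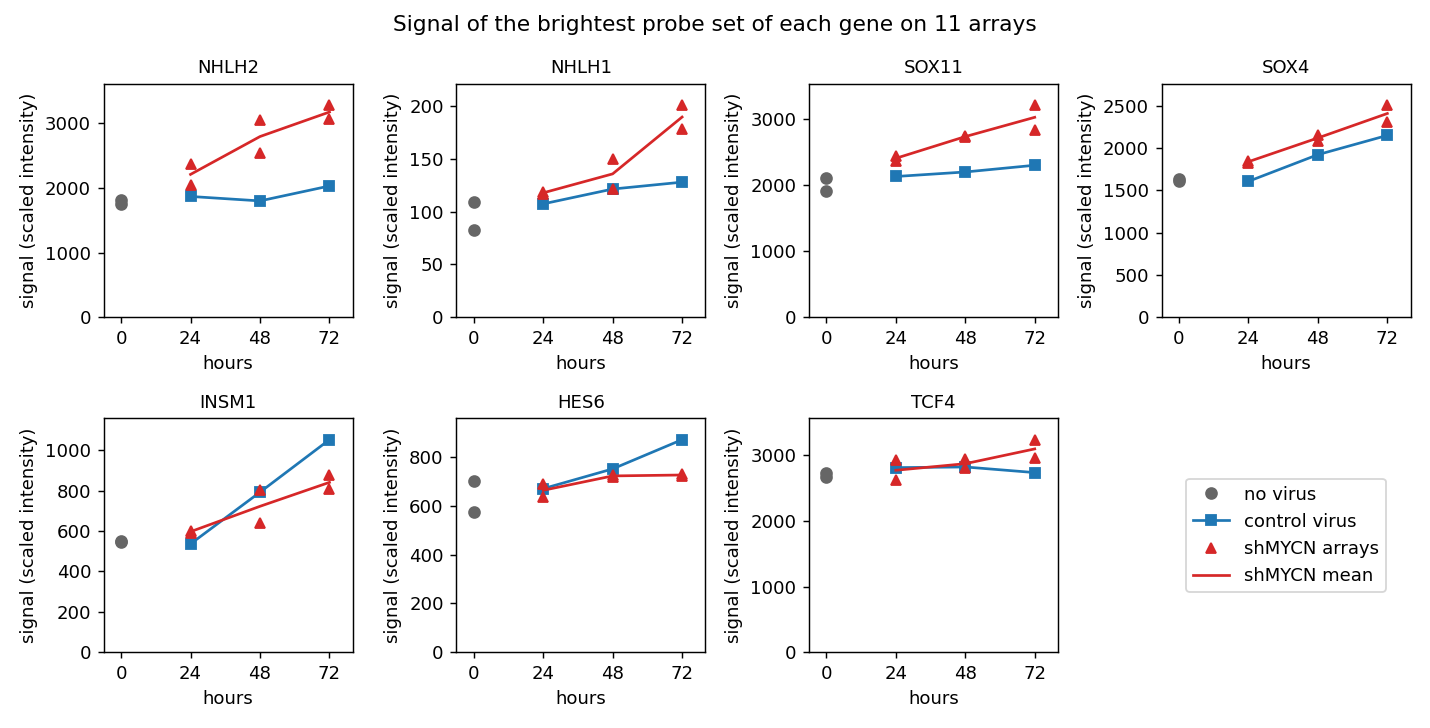
Signal (scaled intensity, linear axis from 0) of the brightest probe set of each of the 7 tested genes against hours, with 1 marker per array: circles for no virus, squares for control virus and triangles for shMYCN, and a line through the shMYCN means. NHLH2, SOX11 and SOX4 have all 6 shMYCN arrays above the control array of the same hour, and INSM1 and HES6 have both below it at 72 h.

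NHLH2, a bHLH factor of developing neurons, had the largest difference of the set. Its brightest probe set, 215228_at, read 1746 and 1822 without virus and 1869, 1801 and 2031 with control virus at 24, 48 and 72 h. With the MYCN hairpin it read 2377 and 2043 at 24 h, 3043 and 2547 at 48 h, and 3284 and 3064 at 72 h. All 6 shMYCN arrays lay above all 5 others, and the means rose from 2210.2 ± 236 (SD, n = 2) at 24 h to 3174 ± 156 (SD, n = 2) at 72 h. Averaged over the hours, NHLH2 was 1.41-fold higher than with control virus (log2 0.50 ± 0.08, limma adjusted p = 0.000371), which placed it at percentile 94 of all genes tested. The log2 difference was 0.24 ± 0.13 at 24 h (limma adjusted p = 0.551), 0.62 ± 0.13 at 48 h (0.00812) and 0.64 ± 0.13 at 72 h (0.00308). The gene passed under all 23 alternatives run for the average, in which the difference was 0.43 to 0.63, and under all 20 at 72 h.

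The second NHLH2 probe set, 214497_s_at, gave a larger and later difference. It read 124 and 129 without virus, 129.6, 159 and 149.9 with control virus, and 124 and 155 with the hairpin at 24 h. At 48 h the shMYCN arrays read 204 and 267, and at 72 h 421 and 418. The 24 h arrays therefore overlapped the references, and the 72 h arrays lay far above all of them. At 72 h the difference from control virus was 2.62-fold (log2 1.39 ± 0.17, limma adjusted p = 0.00153), and from 24 to 72 h the hairpin arrays rose 2.81-fold (log2 1.49 ± 0.14, adjusted p = 0.000482). The difference from control virus grew by 1.30 ± 0.24 from 24 to 72 h (adjusted p = 0.0401), the 1 probe set of 26 for which this interaction passed (background 1.64% of probe sets, or 0.674% higher). For 215228_at the growth was 0.40 ± 0.19 and did not pass in the gene fit (adjusted p = 0.197). With the mean of both probe sets in its place the growth for the gene was 0.85 and passed (adjusted p = 0.0059). Which part of the transcript each probe set reads was not analysed here.

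The promoter windows of NHLH2, NHLH1 and SOX4, which rose from 24 to 72 h in the hairpin arrays and have a listed start, are shown with the E boxes, the sequence CANNTG bound by bHLH dimers, in capitals. With the hairpin the 72 h to 24 h signal ratio was 1.44 for NHLH2, 1.61 for NHLH1 and 1.31 for SOX4. On the control arrays, 1 an hour, it was 1.09, 1.19 and 1.34, so the SOX4 rise is not particular to the hairpin arrays. They come from the RefSeq table of GRCh38.p14 (250 bases before to 50 after each transcript start, 5′ to 3′ on the strand of the gene). NHLH2 has a pair of listed starts, at chr1:115841077-115841376 and chr1:115840654-115840953 on the minus strand; NHLH1 lies at chr1:160366821-160367120 and SOX4 at chr6:21593501-21593800, both on the plus strand.
NHLH2, first start: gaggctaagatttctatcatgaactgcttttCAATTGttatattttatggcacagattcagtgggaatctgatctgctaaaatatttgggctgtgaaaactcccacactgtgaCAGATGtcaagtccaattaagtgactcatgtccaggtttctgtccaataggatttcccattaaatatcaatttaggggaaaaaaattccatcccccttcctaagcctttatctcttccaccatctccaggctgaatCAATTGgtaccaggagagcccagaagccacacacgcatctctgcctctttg
NHLH2, second start: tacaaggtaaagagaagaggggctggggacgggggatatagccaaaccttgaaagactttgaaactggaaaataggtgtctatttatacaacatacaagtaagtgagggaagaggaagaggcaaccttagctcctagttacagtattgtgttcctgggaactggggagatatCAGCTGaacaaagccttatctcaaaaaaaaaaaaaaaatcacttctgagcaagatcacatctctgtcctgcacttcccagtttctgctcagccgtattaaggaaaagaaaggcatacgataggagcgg
NHLH1: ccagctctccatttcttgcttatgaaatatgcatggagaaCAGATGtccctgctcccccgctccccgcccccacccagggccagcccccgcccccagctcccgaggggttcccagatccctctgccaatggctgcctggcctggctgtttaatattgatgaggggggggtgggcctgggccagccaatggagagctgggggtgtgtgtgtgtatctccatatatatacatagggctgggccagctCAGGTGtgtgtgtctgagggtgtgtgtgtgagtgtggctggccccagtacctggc
SOX4: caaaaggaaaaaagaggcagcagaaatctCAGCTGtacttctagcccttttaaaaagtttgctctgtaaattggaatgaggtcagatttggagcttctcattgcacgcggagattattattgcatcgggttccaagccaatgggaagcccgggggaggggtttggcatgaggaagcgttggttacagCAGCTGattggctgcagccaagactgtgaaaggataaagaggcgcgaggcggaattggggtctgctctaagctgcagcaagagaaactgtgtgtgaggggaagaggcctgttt
The first NHLH2 window holds 3 E boxes, the second holds 1 (CAGCTG), the NHLH1 window 2 and the SOX4 window 2 (both CAGCTG). In all, 6 of the 8 genes had a listed start, with 16 windows between them, 10 of those from TCF4. CANNTG, searched on both strands, was in 12 of 16 windows and in 68.7% of all 35116 windows in the table. CAGCTG, which is 1 form of CANNTG, was in 3 of 16 (17.9% of all), and CACGTG, the form bound by MYC-family dimers, was in 1 of 16, a TCF4 start at chr18:55588568-55588867 (7.3% of all). CACNAG, the N box bound by HES repressors, was in 3 of 16 (38.0% of all). ACAATG and ACAAAG, sequences of the kind that SOX proteins bind, were in 2 and 3 of 16 (10.8% and 16.1% of all). These are matches of letters and not measured binding.

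NHLH1, the close relative of NHLH2, was higher at 72 h, a call that did not hold under all settings. Probe set 214628_at read 109 and 82.6 without virus, 107, 121 and 128 with control virus, 117 and 118.5 with the hairpin at 24 h, 121 and 149.9 at 48 h, and 178 and 201 at 72 h. The 72 h arrays lay above all others, while array A at 48 h was level with its control (121.1 against 121.2). NHLH1 was 1.43-fold higher at 72 h (log2 0.51 ± 0.17, limma adjusted p = 0.0381). Averaged over the hours the difference was 0.25 ± 0.10 and did not pass (adjusted p = 0.0616). The 72 h call held under 12 of 20 alternatives. It was lost with median scaling (0.44, adjusted p = 0.0684), without array A or B of the hairpin at 24 h or at 72 h (adjusted p = 0.0605 to 0.164) and in the fit of all probe sets (0.101). The average passed with the letters A and B as a block (adjusted p = 0.0499) and without array A at 48 h (0.017).

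SOX11 was higher on all 3 of its probe sets. The brightest, 204914_s_at, read 2099.8 and 1909.5 without virus, 2127, 2195.5 and 2297 with control virus, 2441 and 2362 with the hairpin at 24 h, 2727 and 2732 at 48 h, and 3208 and 2833 at 72 h. All 6 shMYCN arrays exceeded all 5 references. The average difference was 1.22-fold (log2 0.29 ± 0.06, limma adjusted p = 0.00415). By hour it was 0.17 ± 0.11 at 24 h (adjusted p = 0.626), 0.31 ± 0.11 at 48 h (0.0773; 0.34 and 0.00561 with quantile normalization) and 0.39 ± 0.11 at 72 h (0.0188). Without the control array at 72 h the average covers 24 and 48 h only, and it did not pass (0.24, limma adjusted p = 0.0574). The 72 h difference lost its call without array A of that hour (0.30).

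On the other 2 SOX11 probe sets the hairpin arrays at 48 and 72 h lay above all 5 references too. Probe set 204913_s_at read 1224 and 1199.5 without virus, 1121, 1324.5 and 1306 with control virus, 1278 and 1239 with the hairpin at 24 h, 1587 and 1624 at 48 h, and 1917 and 1825 at 72 h. Probe set 204915_s_at read 1085.5 and 1084.9 without virus, 1128, 1172 and 1271 with control virus, 1290.2 and 1286.5 with the hairpin at 24 h, 1448 and 1504 at 48 h, and 1933 and 1708 at 72 h. On each, every shMYCN array was above the control array of its hour. Their average differences were 0.32 ± 0.05 (limma adjusted p = 0.00377) and 0.34 ± 0.06 (0.00494), and at 72 h both reached 0.51 (adjusted p = 0.00614 and 0.0115). In the same fit the brightest set passed for the average (adjusted p = 0.0194) and did not pass at 72 h (0.0595).

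SOX4, the close relative of SOX11, had higher signals at later hours with either virus. Probe set 201417_at read 1637 and 1608 without virus, 1607, 1922 and 2150.1 with control virus, 1826 and 1852 with the hairpin at 24 h, 2151 and 2088 at 48 h, and 2509.9 and 2307 at 72 h. Each shMYCN array was above the control of its hour, but the 24 h hairpin arrays lay below the control arrays of 48 and 72 h. The average log2 difference was 0.16 ± 0.06 (limma adjusted p = 0.0398), with 0.19, 0.14 and 0.16 at 24, 48 and 72 h, none of which passed (adjusted p = 0.500, 0.372 and 0.233). With quantile normalization the 72 h difference passed (0.24, adjusted p = 0.0178). The call for the average held under 10 of 23 alternatives. Leaving out any 1 of 8 arrays ended it (adjusted p = 0.0701 to 0.133): either array without virus, any of the 3 control arrays, either hairpin array at 24 h, or array A at 72 h. Scaling to the median ended it too (0.102). None of the 6 SOX4 probe sets passed in the fit of all probe sets, although 4 of them had an unadjusted p under 0.05 there, against 27.3% of all probe sets. The 4 bright sets had average differences of 0.16 to 0.30. The 2 dim sets, 1567906_at (14.5 to 28.9) and 213665_at (10.6 to 41.6), had -0.16 and 0.12. At 72 h 4 of the 6 sets had a positive difference, and the lowest was -0.31.

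**Figure D2:**
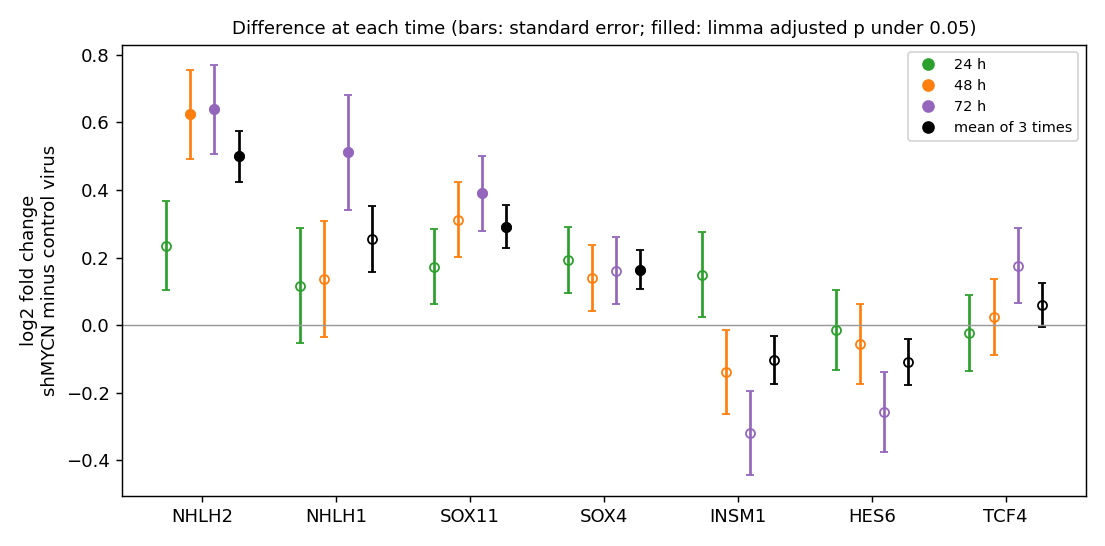
Log2 fold change of shMYCN over control virus for the 7 tested genes at 24, 48 and 72 h and for the mean of the 3 times; bars are standard errors of the limma fit and filled circles passed. NHLH2 is the highest at 48 and 72 h (0.62 and 0.64), SOX4 stays between 0.14 and 0.19 at all hours, and INSM1 goes from 0.15 at 24 h to -0.32 at 72 h.

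TCF4, the E protein that dimerises with the neuronal bHLH factors, did not pass on its brightest probe set, 212386_at. It read 2725 and 2665 without virus, 2813, 2823 and 2737.5 with control virus, 2928 and 2617 with the hairpin at 24 h, 2946 and 2799.7 at 48 h, and 3239 and 2957 at 72 h. Both arrays at 72 h and array A at 24 and at 48 h stood above all 5 references, while array B at 24 and 48 h was below the control of its hour. The average difference was 0.06 ± 0.06 (limma adjusted p = 0.498), with a 95% interval of -0.08 to 0.20, and at 72 h it was 0.18 ± 0.11 (adjusted p = 0.252). Quantile normalization changed both calls, with 0.12 (adjusted p = 0.0196) for the average and 0.24 (0.00884) at 72 h. The mean of all TCF4 probe sets changed the second (0.31, adjusted p = 0.0265).

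TCF4 has 8 probe sets, which differed in size but not in sign for the average and at 72 h. At 24 h 4 of the 8 sets had a positive difference (-0.07 to 0.14 over the sets). At 48 h 6 of the 8 sets did (-0.15 to 0.36). Their average differences ran from 0.03 to 0.28, all above 0, and 1 passed: 228837_at, at 0.28 ± 0.07 (limma adjusted p = 0.0256). That set read 213 and 228 without virus, 199, 189.6 and 217 with control virus, 212.5 and 231 with the hairpin at 24 h, 236 and 259 at 48 h, and 258 and 293 at 72 h. At 72 h the 8 differences were 0.16 to 0.48 and 0 passed, while 6 had an unadjusted p under 0.05, against 25.2% of all probe sets. In 7 of 8 sets both 72 h hairpin arrays exceeded all 5 references. The share of all probe sets that do so was not computed, so this count has no background beside it. From 24 to 72 h within the hairpin arrays 4 of 8 passed (background 13.7% of probe sets, or 7.34% higher), led by 212385_at (0.61 ± 0.11, adjusted p = 0.00989) and 212382_at (0.51 ± 0.10, adjusted p = 0.012). Since the TCF4 sets read 1 gene, they are not independent of each other.

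**Figure D3:**
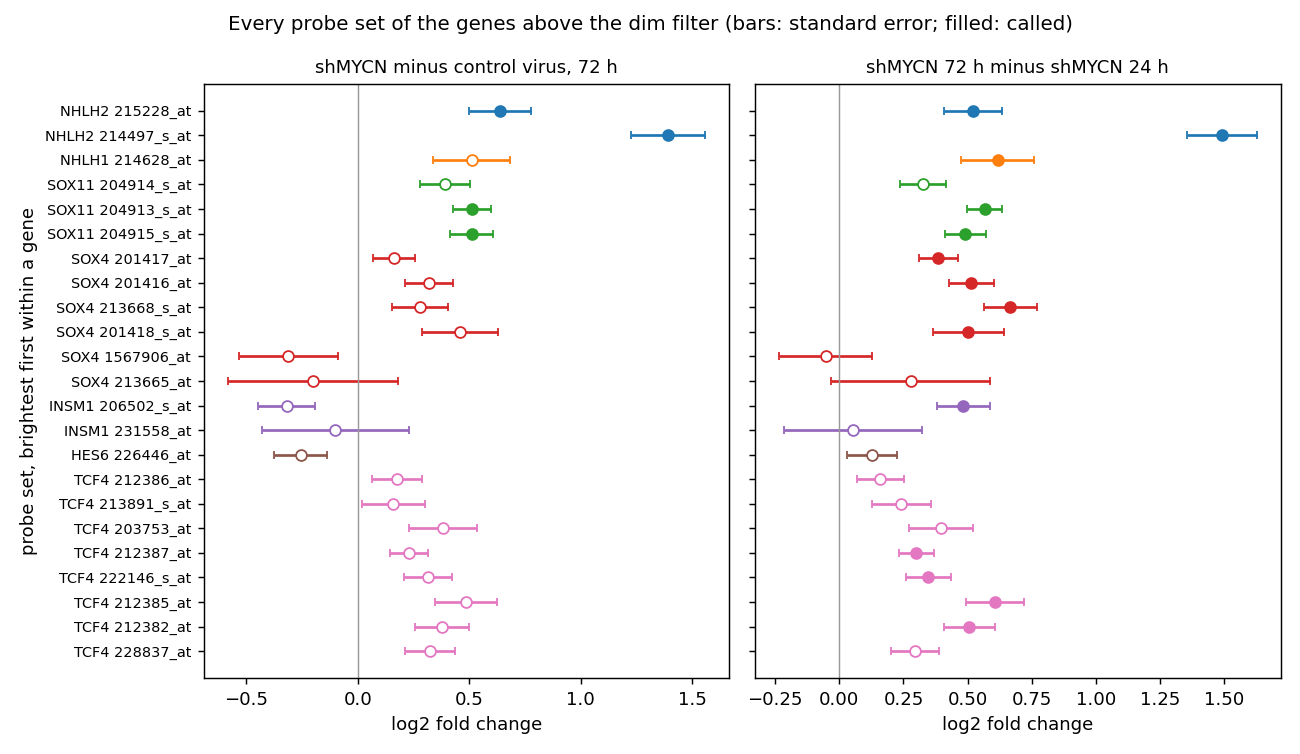
Log2 fold change of each of the 23 probe sets above the dim filter, with standard errors, for shMYCN over control virus at 72 h (left) and for shMYCN at 72 h over shMYCN at 24 h (right); filled circles passed in the fit of all probe sets. The second NHLH2 set stands apart on both sides (1.39 and 1.49), all TCF4 sets lie right of 0, and at 72 h against control virus INSM1 and HES6 lie left of it. In that comparison 4 of 6 SOX4 sets lie right of 0, with the lowest at -0.31.

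Over all 26 probe sets, 6 were higher in the average and 0 lower (background 14.7%, or 7.83% higher): both of NHLH2, all 3 of SOX11 and 1 of TCF4. At 72 h 4 were higher and 0 lower (background 12.5%, or 6.32% higher). The 23 that were above the dim filter had 19 positive averages. Of these, 8 are from TCF4, 5 from SOX4 and 3 from SOX11, and sets of the same gene are not independent. The median average over all genes tested was 0.04, above 0 too. The share of positive averages over all probe sets above the filter was not computed. The background includes many dim probe sets, which the members mostly are not.

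INSM1 did not pass against control virus at any hour. Probe set 206502_s_at read 546 and 549 without virus and 536.5, 793 and 1053 with control virus at 24, 48 and 72 h, so the control array at 72 h was 1.96 times that at 24 h. With the hairpin it read 592 and 602 at 24 h, 803 and 642 at 48 h, and 806 and 876 at 72 h. The hairpin arrays were above the control at 24 h, on both sides of it at 48 h and below it at 72 h. The log2 difference was 0.15 ± 0.12 at 24 h (limma adjusted p = 0.737), -0.14 ± 0.12 at 48 h (0.49) and -0.32 ± 0.12 at 72 h (0.0693), and the average was -0.10 ± 0.07 (0.285; 95% interval -0.26 to 0.05). The change of the difference from 24 to 72 h was -0.47 ± 0.18 (adjusted p = 0.119).

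Several settings moved INSM1 past the threshold. Scaling to the median gave -0.39 at 72 h (limma adjusted p = 0.0274). Without array A or array B of the hairpin at 48 h, where the pair was far apart, the 72 h difference passed (adjusted p = 0.00565 and 0.00566) and so did its change from 24 to 72 h (0.0108 in both). Without array A at 48 h the average and the 48 h difference passed as well (-0.16, adjusted p = 0.0183, and -0.30, adjusted p = 0.0369). Without the control array at 72 h the average covers 24 and 48 h only, and it was 0.0053. The second probe set, 231558_at, was dim (12.6 to 33.3) and did not pass in any comparison.

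HES6, like INSM1, had both hairpin arrays below the control array at 72 h. Probe set 226446_at read 702.5 and 575 without virus, 671, 752 and 872 with control virus, 690.3 and 638 with the hairpin at 24 h, 726.5 and 719.9 at 48 h, and 722 and 732 at 72 h. The hairpin arrays at 48 and 72 h thus lay between 719.9 and 732, and the highest array was the control at 72 h. The average difference was -0.11 ± 0.07 (limma adjusted p = 0.233; 95% interval -0.26 to 0.04) and at 72 h it was -0.26 ± 0.12 (0.118), which passed with median scaling (-0.33, adjusted p = 0.0483). HES1, which HES6 opposes, had 3 probe sets, all below the dim filter, with signals of 0.3 to 12.7 on the 11 arrays. Its brightest, 203394_s_at, read 0.3 and 5.3 without virus, 9.6, 9.6 and 6.6 with control virus, and 1.6 to 12.7 with the hairpin. No HES1 set passed in any comparison. The average difference of the brightest was 0.04 with a 95% interval of -0.34 to 0.41.

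Within the shMYCN arrays 5 of 7 genes rose from 24 to 72 h (background 36.4%, or 18.1% higher). Median scaling lowered the share of higher genes among all that passed in this comparison from 49.7% to 37.4%, and the same 5 members passed with it. NHLH1 rose most (log2 0.62 ± 0.14, limma adjusted p = 0.0052), followed by NHLH2 (0.52 ± 0.11, adjusted p = 0.00289), INSM1 (0.48 ± 0.10, adjusted p = 0.00343), SOX4 (0.38 ± 0.08, adjusted p = 0.00325) and SOX11 (0.33 ± 0.09, adjusted p = 0.0156). Neighbours in that order differed by less than the larger of their standard errors. TCF4 (0.16 ± 0.09, adjusted p = 0.196) and HES6 (0.13 ± 0.10, adjusted p = 0.329) did not pass. TCF4 did pass with quantile normalization (0.24, adjusted p = 0.00243) and with the mean of its probe sets (0.36, adjusted p = 0.00496). The NHLH1 rise lost its call without array B at 72 h (adjusted p = 0.0566). The SOX11 rise lost it without array A or B at 24 h or array A at 72 h (adjusted p = 0.0582 to 0.115). INSM1 did not pass when its dim probe set was averaged in (0.27, adjusted p = 0.206).

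On the brightest probe sets no single step passed. From 24 to 48 h 0 of 7 passed (background 9.78%), and 3 had an unadjusted p under 0.05, against 25.3% of all genes. From 48 to 72 h 0 of 7 passed (background 11.4%), and 2 had an unadjusted p under 0.05, against 26.7% of all genes. For NHLH2 the first step was 0.33 ± 0.11 and the second 0.19 ± 0.11, and for NHLH1 they were 0.17 ± 0.14 and 0.44 ± 0.14 (limma adjusted p = 0.0725, 0.291, 0.478 and 0.0649). Among all 26 probe sets 2 rose from 48 to 72 h (background 2.32%, or 1.03% higher): 214497_s_at of NHLH2 (0.80 ± 0.14, limma adjusted p = 0.0304) and 213668_s_at of SOX4 (0.58 ± 0.10, adjusted p = 0.0349). Time within the control arm, with 1 array an hour, was not tested. From 24 to 72 h its signal ratio was 1.96 for INSM1 and 1.34 for SOX4.

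Against the cells without virus, 5 of 7 genes were higher on the 72 h hairpin arrays (background 45.5%, or 25.3% higher). This comparison differs in virus and time in culture as well as in the hairpin. NHLH1 was 1.84-fold higher (log2 0.88 ± 0.14, limma adjusted p = 0.000362), NHLH2 1.77-fold (0.82 ± 0.11, 8.53e-05), INSM1 1.52-fold (0.60 ± 0.10, 0.000566), SOX11 by 0.59 ± 0.09 on the log2 scale (0.000313) and SOX4 1.48-fold (0.56 ± 0.08, 0.00017). Control virus against no virus gave 0 of 7 by limma (background 0.0337%), with 3 at an unadjusted p under 0.05, against 5.32% of all genes. The largest of these was INSM1, at 0.47 ± 0.09 (adjusted p = 0.237), against 0.09 ± 0.10 for NHLH2. Without the control array at 24 h this comparison covers 48 and 72 h only, and INSM1 passed (0.72, limma adjusted p = 0.0218). It also passed without array A or B of the hairpin at 48 h (0.47 in both). The INSM1 control arrays read 536.5 at 24 h, 793 at 48 h and 1053 at 72 h, against 546 and 549 without virus. Time in culture differs here as well as virus, and its part was not tested. The comparisons with no virus share the 2 arrays without virus, so they are not independent.

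The 7 profiles differed in how alike they were over the 11 arrays, as Pearson's r of log2(signal + 16). All arrays are shared, and so are the groups, so these values are descriptions. NHLH2 and SOX11 were the closest pair (r = 0.946; 0.956 over the 9 arrays with virus), followed by SOX4 and SOX11 (0.9) and NHLH1 with SOX11 (0.872). INSM1 was closest to HES6 (0.812) and SOX4 (0.811), and HES6 and NHLH2 were the least alike (0.234). The most alike genes outside the set were MKNK2 (0.986) and LYPLAL1 (0.985) for NHLH2, GRAMD1A (0.968) and FAM222B (0.967) for NHLH1, CHRNA3 (0.985) and VGLL4 (0.983) for SOX11, and PLXNA2 (0.988) and GLDC (0.983) for SOX4. They were RARB (0.95) and SHC2 (0.932) for TCF4, PDGFC (0.923) and F3 (0.922) for INSM1, and RNF139-DT (0.892) and FRMD6 (0.871) for HES6. The order depends on the measure. By Spearman's rank correlation over 11858 genes, PLXNA2 ranked 104 for SOX4, MKNK2 67 and LYPLAL1 38 for NHLH2, and CHRNA3 49 for SOX11. VGLL4, RARB and F3 ranked 1 for SOX11, TCF4 and INSM1. CHRNA3 is a nicotinic receptor subunit of sympathetic neurons, MKNK2 a kinase of translation factor eIF4E, and RARB a retinoic acid receptor.

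Among the partners and inhibitors of these bHLH factors ID3, ID1 and ID4 had the largest differences. The following lists are described by counts and by their median difference averaged over the 3 hours, beside a median of 0.04 over all genes tested. Of all genes tested 22.2% were higher and 15.8% lower in this average. These shares are the background for the counts of each list below, and no test sets a list apart from them. Of 7 E protein and ID genes, 2 were higher, 3 lower and 2 did not pass, with a median of 0.06. ID1 and ID3, inhibitors of E proteins, were lower by 2.92-fold and 3.23-fold (log2 -1.55 ± 0.09 and -1.69 ± 0.09, limma adjusted p = 3.78e-07 and 2.86e-07) and ID2 by 1.22-fold (-0.29, 0.00156), while ID4 was higher by 1.74-fold (0.80, 7.81e-05). TCF3, the E protein gene next to TCF4 in this list, was higher on its brightest probe set (0.40, adjusted p = 0.00103), but not on the mean of its probe sets (-0.02, adjusted p = 0.749), and TCF12 did not pass (0.07, 0.415).

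Among 27 other proneural and related bHLH genes 11 were tested; 2 were higher, 2 lower and 7 did not pass (median 0.03, below 0 with median scaling). NEUROG2, a proneural factor of sensory and cortical progenitors, read 51.2 and 38.8 without virus, 40.1, 52.7 and 62.1 with control virus, 29.4 and 45.5 with the hairpin at 24 h, 70.1 and 103 at 48 h, and 119 and 150.2 at 72 h. Its 48 and 72 h hairpin arrays exceeded all references (average 0.47 ± 0.14, limma adjusted p = 0.0204). It did not pass without array B at 24 or 72 h or without the control array at 48 or 72 h (0.24 to 0.43, adjusted p = 0.0529 to 0.39). TWIST1 was higher (0.31, adjusted p = 0.0244), and lost its call without the control array at 48 or 72 h, either hairpin array at 24 h or array B at 72 h (0.27 to 0.32, adjusted p = 0.051 to 0.146). ATOH8 (-0.54, adjusted p = 0.00249) and HAND1 (-0.37, 0.00274), which in sympathetic cells accompanies HAND2, were lower, and both lost their call without the control array at 72 h (-0.30 and -0.25, adjusted p = 0.159 and 0.099).

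In the list of HES and HEY repressors with their TLE co-repressors 9 of 16 were tested; 4 were higher, 2 lower and 3 did not pass (median 0.13). HEY1, a Notch target of the same class as HES1, had the largest difference. It read 50.9 and 64.7 without virus, 63.0, 58.0 and 58.8 with control virus, 63.9 and 69.2 with the hairpin at 24 h, 181 and 150.5 at 48 h, and 286 and 245 at 72 h. HEY1 was therefore near its reference level at 24 h and far above it from 48 h (average 1.09 ± 0.10, limma adjusted p = 9.14e-06). TLE1 was higher (0.74, adjusted p = 2.65e-06), and so was TLE5 (0.30, 0.0122), which lost its call without the control array at 72 h (0.15, adjusted p = 0.319). TLE4 was lower on its brightest probe set (-0.52, adjusted p = 0.000507) and not on the mean of its sets (0.05, adjusted p = 0.454).

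Of 32 Notch pathway genes 28 were tested, and 10 were higher, 5 lower and 13 did not pass (median 0.15; 8 higher and 6 lower with median scaling). The co-activator MAML3 (0.84, limma adjusted p = 2.66e-06), the ligand relative DLK1 (0.62, 0.000352) and the gamma-secretase subunit APH1B (0.51, 0.000735) were higher. The receptor NOTCH3 was lower (-0.55, adjusted p = 0.00117), a call that was lost without the control array at 72 h (-0.33, adjusted p = 0.0911).

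SOX2 was the 1 other SOX gene that passed. Of 17 other SOX genes 7 were tested; 0 were higher, 1 was lower and 6 did not pass (median 0.03). SOX2, a factor of neural stem cells, read 79.2 and 101 without virus, 107, 121 and 128 with control virus, 93.5 and 100 with the hairpin at 24 h, 64 and 44.5 at 48 h, and 28.6 and 41.0 at 72 h. Its 48 and 72 h hairpin arrays lay below all references (average -0.87 ± 0.12, limma adjusted p = 0.000207; passed in all 22 alternatives run for it). SOX12, the remaining member of the SOX4 and SOX11 subgroup, did not pass (0.24 ± 0.13, adjusted p = 0.173), nor did SOX15 (-0.19) or SOX7 (0.16). Without array A at 48 h SOX12 passed (0.32, adjusted p = 0.0377), and without array B at 48 h SOX7 passed (0.23, adjusted p = 0.0471).

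In a hand-made list of 6 neuronal genes linked to SOX4 or SOX11, which includes the reported targets TUBB3, DCX and TEAD2, 4 were higher, 1 lower and 1 did not pass (median 0.24). The gene that did not pass was TEAD2. With control virus at 24, 48 and 72 h TEAD2 read 388, 428.5 and 391. With the hairpin at those hours it read 384 and 436, 328 and 521, and 361 and 407. DCX, a microtubule protein of migrating neurons, was 2.40-fold higher (1.26 ± 0.07, limma adjusted p = 2.23e-07) and MAP2, of dendrites, 1.76-fold (0.81, 2.44e-06). The actin-binding DBN1 was higher (0.26, limma adjusted p = 0.00321). It lost its call without the control array at 72 h (0.22, adjusted p = 0.0515) and on the mean of its probe sets (0.19, 0.0594). STMN1, which destabilises microtubules, was 1.67-fold lower (-0.74, adjusted p = 4.4e-06). TUBB3, the neuronal tubulin, was higher by 0.21 (limma adjusted p = 0.036), a call that held under 11 of 23 alternatives. It was lost with median scaling (0.18, adjusted p = 0.0732), and without any 1 of 7 arrays (0.12 to 0.21). Among these were the control arrays at 48 and 72 h and both arrays without virus. The hairpin arrays among them were A at 24 and 72 h and B at 48 h.

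Of 12 genes on the list of INSM1 and its co-repressors 11 were tested; 1 was higher, 4 lower and 6, INSM1 among them, did not pass (median -0.10). HDAC2, a histone deacetylase, was lower (-0.68 ± 0.05, limma adjusted p = 3.55e-06), and its relative HDAC1 was higher (0.25, adjusted p = 0.00526; 0.19 and 0.0643 without the control array at 48 h). RCOR3, a scaffold of the complex with LSD1, was lower (-0.50, adjusted p = 0.000106). HMG20B, another subunit, was lower (-0.35, adjusted p = 0.0142), a call that was lost without the control array at 48 h or at 72 h (-0.29 and -0.19, adjusted p = 0.0898 and 0.302).

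**Figure D4:**
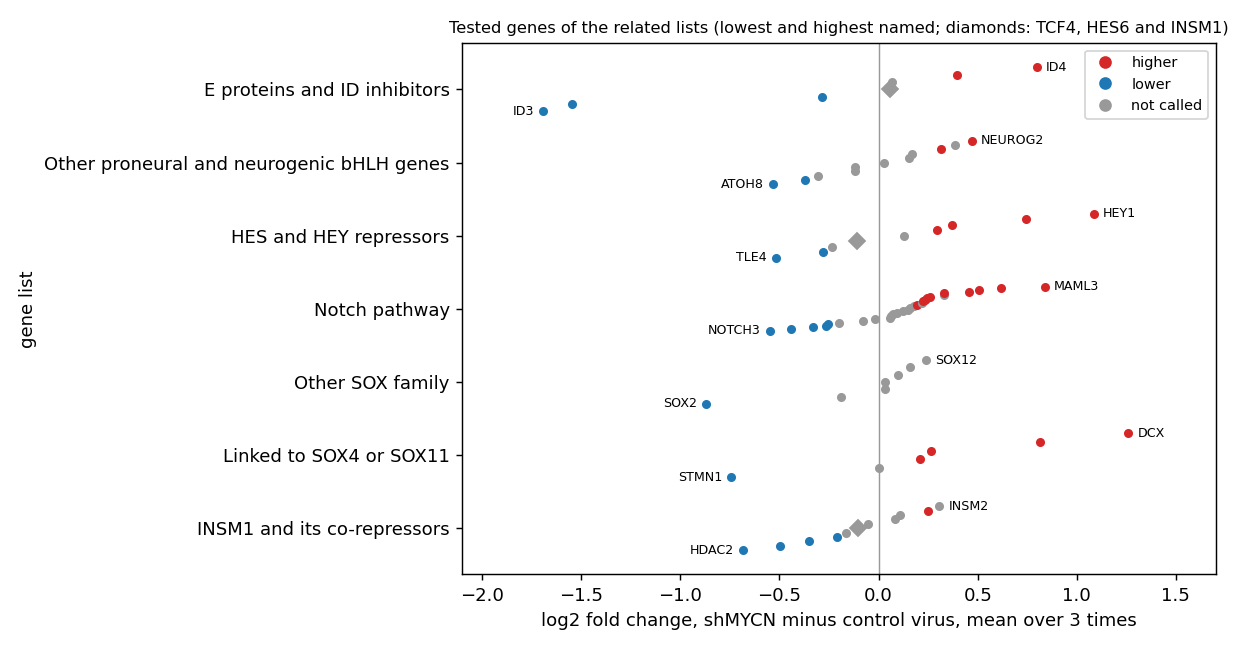
Log2 fold change of shMYCN over control virus, averaged over 3 times, for each tested gene of 7 related lists, with red for higher, blue for lower and grey for not passed; diamonds mark TCF4, HES6 and INSM1, and the lowest and highest gene of each list are named. The members sit near 0 (0.06, -0.11 and -0.10), inside lists that reach from -1.69 (ID3) to 1.26 (DCX).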

How the data were processed

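The deposited table holds 1 intensity per probe set and array, which the authors made with GCOS and MAS5 per the submitters' processing notes; the trimmed mean of the middle 96% of probe sets is 100 on each array and the medians are 14.9 to 16.7. The settings behind it are not given in the sources used here. Names came from the platform annotation, updated through Entrez identifiers with RefSeq (GRCh38.p14): 41097 of 54675 probe sets had 1 symbol, 1801 several and 11777 none, and 62 control probe sets were left out.

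Intensities were analysed as log2(signal + 16) with limma 3.58.1 in R 4.3.3, with 1 mean for each of 7 groups over 11 arrays and a trended eBayes fit (4 residual and 7.35 prior degrees of freedom), tested on simulated data first. The spread comes from the 4 groups with 2 arrays, and the unreplicated control arrays are assumed to vary alike. SD of the log2 difference within pairs was 0.172 to 0.271, the highest at 48 h. The number of arrays limits the precision. The members and the lists were chosen with earlier results of these data known, so no list gives independent support. Genes named beside the members were, from each list, up to 4 with the smallest p for the average over hours plus every gene of the E protein and ID list, and the 2 genes with the highest Pearson r to each member. TUBB3, TEAD2 and the marker genes are named besides, after their values were seen. Alternatives were another offset (1 or 64), quantile or median scaling, other dim filters (none, or 60%), the mean of probe sets, no variance trend, a threshold of 0.01, the letters as a block, additive models, and each array left out.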

Additional observations from a re-analysis of the deposited data

Results flagged for a closer look

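The second NHLH2 probe set, 214497_s_at, had a difference between shMYCN and control virus that was not the same at 24 and at 72 h: the change of the log2 difference between those hours was 1.30 ± 0.24 (limma adjusted p = 0.0401 over all probe sets). At 24 h the hairpin arrays read 124 and 155 against 129.6 with control virus, and at 72 h 421 and 418 against 149.9. The brightest NHLH2 probe set changed by 0.40 over the same hours and did not pass. Each control value is from 1 array.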

How the results depend on the processing

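Over 1008 recomputed member values, 946 kept their direction and their side of the threshold, 30 fell short of it, 22 passed newly and 10 changed sign, none of the last past the threshold on either side. Dim signals limit HES1 and the second INSM1 probe set, and each control hour rests on 1 array. Averaged over hours, 1 to 5 members passed with 1 array left out, 1 of them without the control array at 72 h and 5 without array A at 48 h, and genes that passed numbered 4500, against 1938 to 5603 with 1 array left out and 2846 at a threshold of 0.01. At 48 h 2 members passed with quantile normalization (SOX11 and NHLH2), and 1 to 2 with 1 array left out. At 72 h 5 passed with quantile normalization and 1 at the threshold of 0.01, and 1 to 4 with 1 array left out. For control virus against no virus, 0 to 1 passed (INSM1).

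Among the values that changed sign, the INSM1 average ran from -0.23 to 0.0053 with 1 array left out, and its 48 h difference from -0.30 to 0.018. The 0.0053 came without the control array at 72 h, and so without that hour in the average. The HES6 difference at 24 h was 0.015 with quantile normalization and -0.071 to 0.040 with 1 array left out. That of TCF4 was 0.046 with quantile normalization, 0.017 with the mean of probe sets and -0.10 to 0.058 with 1 array left out. At 48 h NHLH1 ran from -0.0011 to 0.27 and TCF4 from -0.012 to 0.061, and the SOX4 change from 24 to 72 h from -0.092 to 0.029. The HES1 set 203394_s_at gave -0.028 with an offset of 1. The cause was not tested.

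Genes that passed at 24 h numbered 84, against 35 without the dim filter, 48 with the mean of probe sets, 35 without the trend, 25 at the threshold of 0.01 and 3 to 413 with 1 array left out. At 48 h they were 2015, against 847 at 0.01 and up to 3587. At 72 h they were 4034 against 2441 at 0.01, and from 24 to 72 h 4321 against 2658 at 0.01 and down to 2648. For control virus against no virus 4 passed, 0 to 36 over the settings. Median scaling gave 50.5% higher among genes that passed for the average, in place of 58.4%, and quantile normalization 42.9% in place of 75% for control virus.

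Whether the letters A and B pair the hours cannot be settled from the signals. Deviations between letters correlated at -0.0508 to 0.1 between hours, so no strong shared deviation was seen. With the letter as a replicate block NHLH1 passed for the average (0.25, limma adjusted p = 0.0499), so that 4 members passed, and 4763 genes; no other member call changed.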
